A study of Mus musculus with 4 samples.

Results

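A set of 10 genes of epidermal growth factor (EGF) and fibroblast growth factor (FGF) signalling was followed in cultured mouse neural stem cells. They are the receptors Egfr, Fgfr1, Fgfr2 and Fgfr3, the feedback inhibitors Spry1, Spry2, Spry4 and Dusp6, and the ETS transcription factors Etv4 and Etv5. They were chosen by symbol, and each matched 1 of the 55487 gene IDs in the table. Values were in TPM, a measure of transcript abundance scaled for transcript length and for the library total, so that levels of different genes within a library can be compared.

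The cells were primary neural stem cells from the embryonic neocortex, grown in N2B27 medium with bFGF and EGF, and all 4 groups carried floxed alleles. The control was a Tut1f/f culture given empty lipid nanoparticles (LNP). The library labelled Tut1 KO came from a Tut1f/f culture, the Trp53 KO library from a p53f/f culture and the library labelled double KO from a Tut1f/f;p53f/f culture. These 3 cultures received LNP carrying Cre mRNA for 3 days. Each group had 1 library, so there was no replicate check, no test was possible and no value below has an error. The control was the only culture without Cre, and the Trp53 KO and double KO cultures also differed from it in their floxed alleles. No p53f/f culture with empty LNP was analysed here, so the effects of Cre and of a deletion cannot be told apart in comparisons with the control.

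Both receptor families are tyrosine kinases. On binding their ligand they pass the signal through adaptor proteins to Ras and on to the kinase ERK, and EGF and FGF are added to neural stem cell cultures to keep them dividing. Active ERK induces genes that dampen the same pathway: Sprouty proteins (Spry1, Spry2, Spry4) act between receptor and ERK, and Dusp6 is a phosphatase that removes the activating phosphates from ERK. Etv4 and Etv5 belong to the PEA3 group of ETS factors, whose transcription is induced by FGF signalling in many embryonic tissues.

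The labels were checked first. Tut1, which encodes the terminal uridylyltransferase of U6 snRNA, had 12.2 TPM in the control, 29.8 TPM in the library labelled Tut1 KO, 12.5 TPM with Trp53 KO and 13.7 TPM in the library labelled double KO. It was thus not lower in either library labelled as lacking it. In the floxed allele the loxP sites lie around exon 2, so TPM of the whole gene also counts exons that Cre leaves in place, and these values do not check the deletion. Directions drawn from these libraries rest on the label. Trp53 had 119.9 and 100.4 TPM in the Trp53-intact libraries against 39.7 and 42.0 TPM in the Trp53-deleted ones. Xist stood at 188 TPM in the library labelled Tut1 KO and reached 204 TPM with Trp53 KO but was near 0 in the others, whereas the Y-linked gene Ddx3y was seen in the control (24.4 TPM) and the double KO (25.7 TPM) and was listed at 0 in the other 2. The control and the double KO are called Y-expressing below, and the other 2 Xist-expressing. All 10 neural stem cell markers reached 10 TPM in some library, led by Fabp7. Of 6 oligodendrocyte lineage markers 3 reached it, namely Olig1 (895 to 1029 TPM), Olig2 (530 to 619 TPM) and Cspg4 (53.4 to 74.6 TPM), and the list summed to 1530 to 1726 TPM. Olig1 and Olig2, transcription factors, are also expressed by neural progenitors in culture. The 12 endothelial, microglial and mesenchymal markers, led by Kdr, Csf1r and Col1a1, were each under 1 TPM in all 4 libraries.

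Of the 10 genes, 9 reached 10 TPM in some library, and for 8 of these the highest level was under 1.5 times the lowest. Summed TPM of the 10 was 981 in the control, 866 in the library labelled Tut1 KO, 914 with Trp53 KO and 910 in the library labelled double KO. Spry2 was the most abundant in every library and Etv5 came next, while Egfr was eighth, Fgfr3 ninth and Fgfr2 last in each. The genes between them (Dusp6, Spry1, Spry4, Etv4 and Fgfr1) changed places from library to library. Without replicates it could not be said which neighbours in that order differed beyond their spread. The highest level divided by the lowest was 1.08 for Fgfr1 and between 1.20 and 1.47 for Egfr, Etv4, Etv5 and the 4 feedback inhibitors. It was 1.71 for Fgfr2, whose level was low, and 2.46 for Fgfr3.

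**Figure D1:**
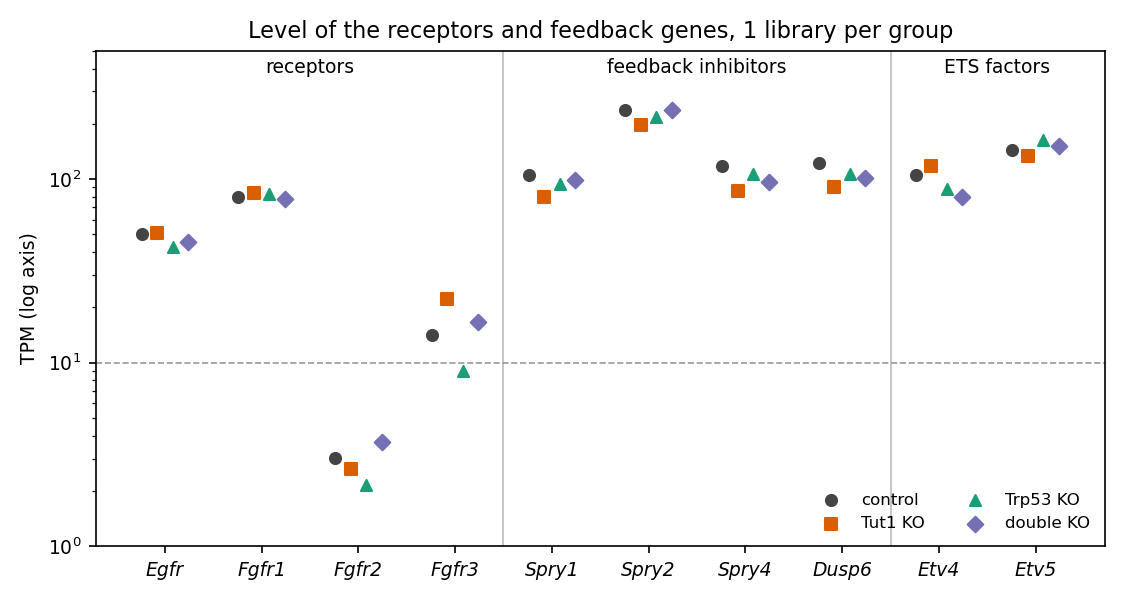
TPM (log axis) of the 10 genes in the 4 libraries, 1 point each (circles for the control, squares for Tut1 KO, triangles for Trp53 KO and diamonds for double KO), with a dashed line at 10 TPM. Spry2 lies highest and Fgfr2 lowest, and the 4 points of Fgfr3 are spread from 9.04 to 22.2 TPM.

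Differences between libraries were taken on the log2(TPM + 1) scale and are given as the first library minus the second, so that Tut1 KO versus control is above 0 where the library labelled Tut1 KO was higher, and a gene was called at a difference of at least 1 if it reached 10 TPM in either library. Fgfr2 stayed below 10 TPM throughout, so 9 of the 10 genes entered each comparison. None was called in Tut1 KO versus control, where 4.1% of 9032 genes were called in either direction, or in double KO versus Trp53 KO (3.21% of 8976 genes). None was called in Trp53 KO versus control (3.83% of 9055), double KO versus Tut1 KO (3.9% of 8950) or double KO versus control (3.31% of 9022). In Tut1 KO versus Trp53 KO 1 gene was called, Fgfr3, beside 4.57% of 8936 genes. Fgfr3 had 9.04 TPM with Trp53 KO, so it entered only through the library where it was higher. The call was lost when both libraries had to reach 10 TPM and with a pseudocount of 5 (0.955). These 6 comparisons reuse the same 4 libraries and are not independent.

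At a 1.5-fold threshold Fgfr3 alone was called, in 4 of the 6 comparisons. They were Tut1 KO versus control (12.1% of all genes called), double KO versus Trp53 KO (7.89%), Trp53 KO versus control (8.42%) and Tut1 KO versus Trp53 KO (11.6%). No member passed it in double KO versus Tut1 KO (10.7% of all genes) or double KO versus control (7.76%). In the 3 calls that used the Trp53 KO library, Fgfr3 entered only through the other library, where it was higher.

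**Figure D2:**
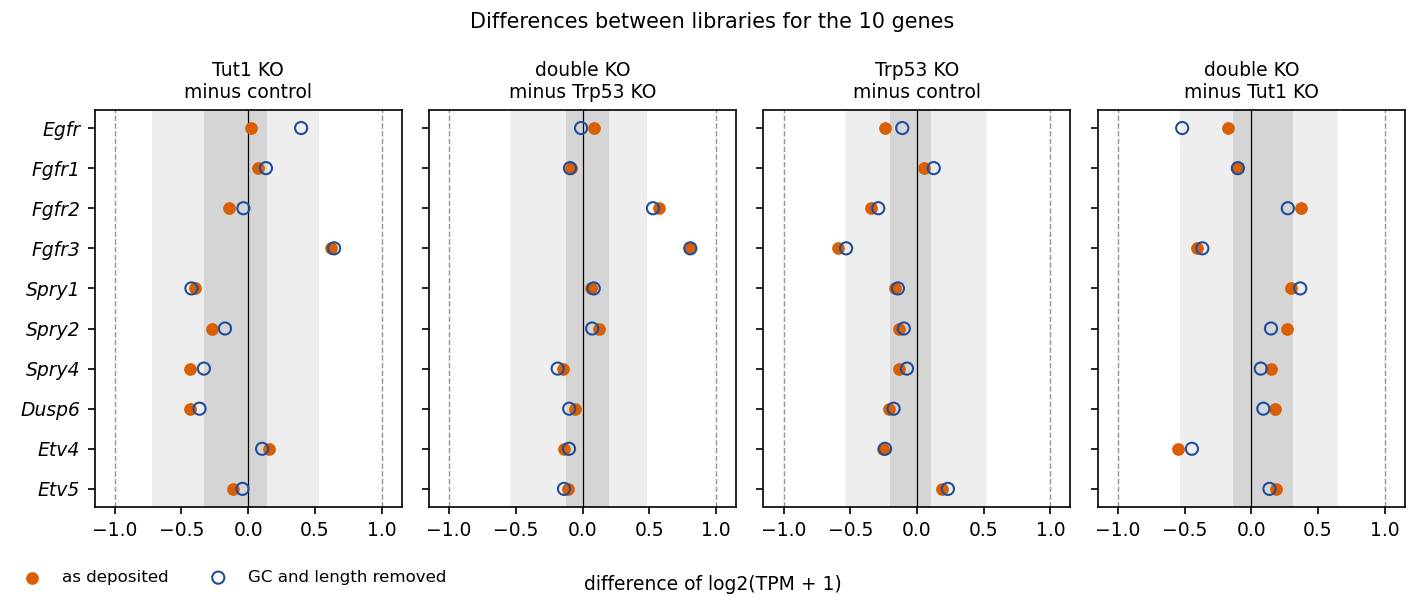
Difference of log2(TPM + 1) for each of the 10 genes in 4 comparisons, as deposited (filled) and after removing the trend with GC content and transcript length (open). Dark and light bands hold the middle 50% and 90% of all genes that entered, and dashed lines mark a difference of 1. As deposited, Fgfr3 lies outside the light band in Tut1 KO versus control (0.62), double KO versus Trp53 KO (0.81) and Trp53 KO versus control (-0.59). Etv4 lies outside it in double KO versus Tut1 KO (-0.55), and Fgfr2 in double KO versus Trp53 KO (0.57). Fgfr2 is shown although it stayed under 10 TPM.

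Fgfr1 was the main FGF receptor transcript. Fgfr1 (ENSMUSG00000031565, GRCm38 chr8:25513654-25575718, plus strand) had 79.9 TPM in the control, 84.4 TPM in the library labelled Tut1 KO, 83.0 TPM with Trp53 KO and 78.2 TPM in the library labelled double KO. Its 4 values were closer together than those of any other of the 10 genes, with a coefficient of variation of 3.47%. It was higher in both Xist-expressing than in both Y-expressing libraries, an order found for 11.5% of the 9314 genes that reached 10 TPM in some library. Fgfr1 made up 82.3% of the summed TPM of Fgfr1 to Fgfr4 in the control, 77.1% in the library labelled Tut1 KO, 88.1% with Trp53 KO and 79.4% in the library labelled double KO.

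Fgfr3 was the gene that varied most. Fgfr3 (ENSMUSG00000054252, chr5:33721674-33737068, plus strand), a receptor known from radial glia and astrocytes, had 14.1 TPM in the control, 22.2 TPM in the library labelled Tut1 KO, 9.04 TPM with Trp53 KO and 16.6 TPM in the library labelled double KO. Both libraries labelled as lacking Tut1 were above both others, an order that 15.3% of all 9314 genes shared. The opposite order, with both Tut1-intact libraries higher, was found for 17.1%. By the Trp53 label the Fgfr3 values overlapped, and so they did by the sex-linked transcripts.

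The Fgfr3 difference was 0.62 in Tut1 KO versus control, larger in size than 89.5% of the genes compared, and 0.81 in double KO versus Trp53 KO, larger than 95.5%. Control and Tut1 KO, as well as Trp53 KO and double KO, also differed in their sex-linked transcripts, in opposite directions in the 2 comparisons. Where Trp53 was the labelled difference, Fgfr3 differed by -0.59 (Trp53 KO versus control, larger in size than 91.7% of genes) and by -0.40 (double KO versus Tut1 KO, 76.2%). Double KO versus control, with like sex-linked transcripts, gave 0.21. Between the library labelled Tut1 KO and the Trp53 KO the difference was 1.21, a 2.31-fold difference on the TPM + 1 scale. The share of Fgfr3 in the sum of Fgfr1 to Fgfr4 was 9.59% in the Trp53 KO, 14.6% in the control, 16.8% in the library labelled double KO and 20.3% in the library labelled Tut1 KO.

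Among the genes searched, the 3 with the most similar course to Fgfr3 over the 4 libraries were Pla2g7, Mrpl11 and Klhdc4. The search covered protein-coding genes that reached 10 TPM in some library, without Gm, Rik, pseudogene and clone symbols. Likeness was the largest gap, over the 4 libraries, between the genes' deviations from their own mean of log2(TPM + 1), and it was 0.061 for Pla2g7, 0.11 for Mrpl11 and 0.14 for Klhdc4. Pla2g7, which encodes a secreted phospholipase that inactivates platelet-activating factor, had 11.5, 17.4, 6.69 and 12.8 TPM in the order control, Tut1 KO, Trp53 KO, double KO. With 4 points such a match is a description only.

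Because Fgfr3 is also an astrocyte gene, astrocyte markers were read beside it. Their summed TPM was 82.2 in the control, 82.7 in the library labelled Tut1 KO, 93.5 with Trp53 KO and 92.3 in the library labelled double KO, nearly all of it Aldh1l1, and did not follow the order of Fgfr3. Gfap and Aqp4, the defining astrocyte markers of the list, were under 1 TPM in all 4 libraries. Gfap, at 0.135, 0.966, 0.238 and 0.688 TPM in the same order of libraries, was nevertheless higher in both libraries labelled as lacking Tut1, like Fgfr3. S100b, at 3.60, 5.21, 2.38 and 4.40 TPM, was also higher in both and followed the whole order of Fgfr3, whereas Aqp4 overlapped. The part of these markers in the Fgfr3 result was not tested. In bulk RNA, fewer cells of a type and less RNA per cell cannot be told apart. The neural stem cell marker Hes5, a target of Notch signalling, had 39.6 TPM in the control, 59.8 TPM in the library labelled Tut1 KO, 36.8 TPM with Trp53 KO and 66.5 TPM in the library labelled double KO. Hes5 was thus also higher in both libraries labelled as lacking Tut1, and was singled out after its values were seen. The summed neural stem cell markers, 12590, 11300, 10690 and 12390 TPM in that order, did not follow Fgfr3.

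Egfr and Fgfr2 completed the receptors. Egfr (ENSMUSG00000020122, chr11:16752203-16918158, plus strand), the receptor for EGF, had 50.3 TPM in the control, 51.1 TPM in the library labelled Tut1 KO, 42.5 TPM with Trp53 KO and 45.2 TPM in the library labelled double KO. Both Trp53-intact libraries were above both Trp53-deleted ones, the order of 13.4% of all genes, with differences of -0.24 (Trp53 KO versus control) and -0.17 (double KO versus Tut1 KO). After removal of the trend with GC content and transcript length these were -0.11 and -0.52. Egfr supplied between 77.3% and 86.4% of the summed TPM of Egfr, Erbb2, Erbb3 and Erbb4.

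Fgfr2 (ENSMUSG00000030849, chr7:130162451-133123350, minus strand) had 3.03 TPM in the control, 2.64 TPM in the library labelled Tut1 KO, 2.17 TPM with Trp53 KO and 3.71 TPM in the library labelled double KO. These low values were higher in both Y-expressing than in both Xist-expressing libraries. That order held for 28.5% of the genes that reached 10 TPM, a group without Fgfr2. The Fgfr2 values are uncertain, because annotated Fgfr2 exons overlap exons of Ctbp2 on the same strand. Ctbp2 stood at 31.3 to 40.1 TPM, and how reads were divided between the genes was not stated.

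Among the feedback inhibitors Spry2 was the most abundant. Spry2 (ENSMUSG00000022114, chr14:105891947-105896819, minus strand) had 239 TPM in the control, 197 TPM in the library labelled Tut1 KO, 218 TPM with Trp53 KO and 237 TPM in the library labelled double KO. Spry1 (ENSMUSG00000037211, chr3:37639947-37644598, plus strand) had 106, 80.1, 94.3 and 98.7 TPM in the same order of libraries. Spry4 (ENSMUSG00000024427, chr18:38586247-38601415, minus strand) had 117, 86.6, 107 and 96.3 TPM. All 3 Sprouty genes were highest in the control and lowest in the library labelled Tut1 KO. Dusp6 (ENSMUSG00000019960, chr10:99263231-99267489, plus strand), the ERK phosphatase, had 123 TPM in the control, 90.3 TPM in the library labelled Tut1 KO, 106 TPM with Trp53 KO and 102 TPM in the library labelled double KO, again with the control highest and the library labelled Tut1 KO lowest.

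The 4 inhibitors were thus all lower in Tut1 KO versus control, with differences of -0.40 (Spry1), -0.27 (Spry2), -0.43 (Spry4) and -0.44 (Dusp6). Their median was -0.41, beside -0.09 for all genes, of which 60.7% were below 0. None reached a difference of 1, and the largest, that of Dusp6, exceeded in size 77.0% of the genes compared. Where Trp53 was deleted, the Tut1-labelled comparison did not show this: double KO versus Trp53 KO gave 0.07 for Spry1, 0.12 for Spry2, -0.15 for Spry4 and -0.06 for Dusp6. The difference between the comparisons was not tested, as there were no replicates. The Y-expressing library is the second in Tut1 KO versus control and the first in double KO versus Trp53 KO. The Trp53 label and the sex-linked transcripts therefore cannot be told apart here. In Trp53 KO versus control all 4 were also below 0, as were 59.9% of all genes. The median of the 4 was -0.15, beside -0.05 for all genes. The control was thus the highest of the 4 libraries for each inhibitor, though for Spry2 nearly level with the double KO (238.6 against 237.3 TPM). In double KO versus control 50.2% of all genes were below 0. The share of all genes that were highest in the control was not computed. The control was also the only culture without Cre, and the part of Cre was not tested.

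By label, Spry4 and Dusp6 were higher in both Tut1-intact than in both Tut1-deleted libraries (17.1% of all genes). Spry1 and Spry2 followed the sex-linked transcripts, with both Y-expressing libraries higher, an order found for 28.5% of all genes. Within the Sprouty family the proportions held nearly constant: Spry2 made up 51.4% of the summed TPM of Spry1 to Spry4 in the control, 53.9% in the library labelled Tut1 KO, 51.6% with Trp53 KO and 54.6% in the library labelled double KO, and Spry3 stayed under 3 TPM. Summed neuronal markers, of which Map2 was the main part, ran in the same order of libraries as the summed inhibitors, an order that came from Map2. They came to 229, 161, 200 and 211 TPM against 584, 454, 525 and 534 TPM for the inhibitors, with the control given first, then Tut1 KO, Trp53 KO and double KO. Of the 6 neuronal markers 2 reached 10 TPM. Tubb3, the other of these, was lowest with Trp53 KO (10.98 TPM) and had 12.6, 12.1 and 12.5 TPM in the control, Tut1 KO and double KO, and Dcx was highest in the library labelled Tut1 KO (3.13 TPM). Rbfox3, under 10 TPM, was lowest in the library labelled Tut1 KO (3.998 TPM) like Map2, but highest with Trp53 KO (5.177 TPM). Neurod1 and Stmn2 were under 1 TPM in all libraries. The part of the neuronal markers in the result was not tested.

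Since the inhibitors were lower together in the library labelled Tut1 KO, the promoters of 3 of them are shown, as the 250 bases before the RefSeq transcript start (GRCm38.p6), written 5′ to 3′ along the gene. Capitals mark GGAA, the core that ETS factors bind, on either strand (TTCC on the strand shown). Spry1 is chr3:37639697-37639946 (plus strand), Spry2 is chr14:105896820-105897069 (minus strand) and Dusp6 is chr10:99262981-99263230 (plus strand).
Spry1: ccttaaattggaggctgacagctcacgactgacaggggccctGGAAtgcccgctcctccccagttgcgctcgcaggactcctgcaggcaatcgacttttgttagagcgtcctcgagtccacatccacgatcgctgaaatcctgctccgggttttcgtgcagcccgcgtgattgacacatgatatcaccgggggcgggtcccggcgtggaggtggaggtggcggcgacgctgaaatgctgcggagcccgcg
Spry2: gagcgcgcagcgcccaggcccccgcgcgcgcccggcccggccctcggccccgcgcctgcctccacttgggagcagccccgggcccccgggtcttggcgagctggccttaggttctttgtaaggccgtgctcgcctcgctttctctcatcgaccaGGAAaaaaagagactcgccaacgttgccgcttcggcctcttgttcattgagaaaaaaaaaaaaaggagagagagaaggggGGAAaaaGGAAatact
Dusp6: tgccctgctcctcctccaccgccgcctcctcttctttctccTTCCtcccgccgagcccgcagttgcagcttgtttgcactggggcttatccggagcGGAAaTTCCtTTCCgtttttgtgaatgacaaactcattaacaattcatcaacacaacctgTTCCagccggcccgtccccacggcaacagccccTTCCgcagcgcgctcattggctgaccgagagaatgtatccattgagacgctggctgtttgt

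The stretches held 1 GGAA core for Spry1, 3 for Spry2 and 6 for Dusp6. RefSeq windows of 300 bases (250 before to 50 after the start) were given for 7 of the 10 genes, 9 windows in all. GGAA was in 8 of these 9, but also in 96.0% of all 32851 windows, with a median of 3 per window, so that most promoters held it. The longer ETS forms ACCGGAAGT (1.1% of all windows) and CCGGAAGT (3.89%), which overlap GGAA, were in none of the 9. Neither were the cyclic AMP response element TGACGTCA (1.79%) and its part TGACG (20.8%). The GC box GGGCGG was in 5 of the 9, in the 4 genes Spry1, Egfr, Fgfr3 and Etv5, and in 35.7% of all windows. GGAA and GGGCGG were searched after the other motifs had been read. Both strands were searched throughout.

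The ETS factors Etv4 and Etv5 ran in opposite directions by the Trp53 label. Etv4 (ENSMUSG00000017724, chr11:101769742-101785371, minus strand) had 105 TPM in the control, 118 TPM in the library labelled Tut1 KO, 88.3 TPM with Trp53 KO and 79.96 TPM in the library labelled double KO. Both Trp53-intact libraries were above both Trp53-deleted ones, as for Egfr (13.4% of all genes). Etv5 (ENSMUSG00000013089, chr16:22381309-22439719, minus strand) had 144, 133, 164 and 152 TPM in the same order of libraries, with both Trp53-deleted libraries higher (14.2% of all genes).

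Etv4 differed by -0.25 in Trp53 KO versus control and by -0.55 in double KO versus Tut1 KO, the latter larger in size than 87.8% of genes. Etv5 differed by 0.19 in both. The ratio of Etv5 to Etv4 was 1.37 in the control and 1.13 in the library labelled Tut1 KO, against 1.86 with Trp53 KO and 1.90 in the library labelled double KO. The sum of the PEA3 group, with Etv1 included, stayed between 271 and 286 TPM. In the Tut1-labelled comparisons Etv4 differed by 0.16 and -0.14 and Etv5 by -0.11 and -0.11. Each group by Trp53 label held a Y-expressing and an Xist-expressing library. Of the 9 genes that reached 10 TPM, 3 did not overlap between the groups by the Trp53 label, where 27.7% of all 9314 genes did not. By the Tut1 label it was again 3 (32.4% of all genes), and by the sex-linked transcripts 3 (39.9%). These shares of members were near those of all genes and are no result about the members.

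Across the library labelled Tut1 KO, differences from the control ran with the GC content of the transcript. The median was -0.31 for protein-coding genes of lowest GC content and 0.07 for those of highest, when these genes were split into 4 equal groups by GC content. In double KO versus Trp53 KO these medians were 0.12 and -0.01. Removing a quadratic fit on GC content and transcript length moved the median of all genes in Tut1 KO versus control from -0.09 to 0.01. Fgfr3, at 56.4% GC, was then at 0.64 in that comparison and at 0.81 in double KO versus Trp53 KO, and the inhibitors had a median of -0.35.

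Egfr, at 44.4% GC and with the longest of the 10 transcripts, moved more with the correction than the others, from 0.02 to 0.40 in Tut1 KO versus control and from -0.17 to -0.52 in double KO versus Tut1 KO. Egfr was therefore level with the control as deposited but above the trend of genes like it in GC content and length. For the 9 genes that reached 10 TPM, each order by label or by sex-linked transcripts given above was the same after this correction and under the other scalings tried.

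**Figure D3:**
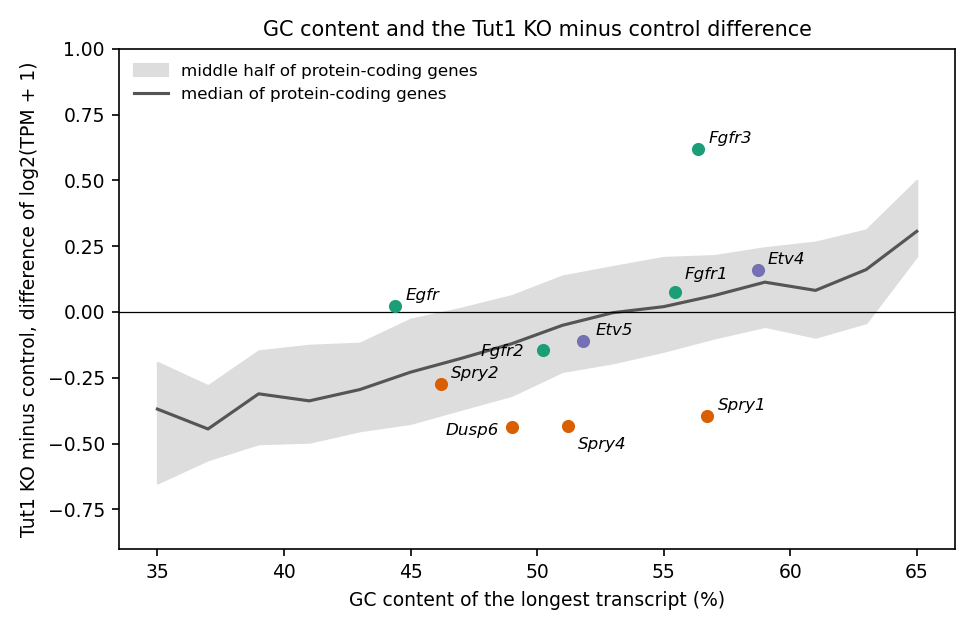
Tut1 KO versus control difference of log2(TPM + 1) of the 10 genes against the GC content of their longest transcript. The line is the median and the band the middle 50% of protein-coding genes in bins of GC content. Fgfr3 (56.4% GC, 0.62) lies above the band, Spry1, Spry4 and Dusp6 lie below it, and Egfr lies above it although its difference is 0.02.

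The rest of the pathway was read from lists, and no gene of the lists below that reached 10 TPM was called in any of the 6 comparisons. Of 18 FGF ligands, 16 were under 1 TPM in every library, 4 of them listed at 0 throughout, and the most abundant was Fgf1 with 8.30, 8.72, 12.3 and 10.1 TPM in the order control, Tut1 KO, Trp53 KO, double KO. Of 11 ErbB ligands Hbegf led with 16.3 to 18.8 TPM, and Egf was under 1 TPM in each library. EGF and bFGF, the product of Fgf2, were supplied in the medium. Of 6 other ErbB and FGF receptors only Fgfrl1, a receptor without a kinase domain, reached 10 TPM (19.9 to 23.7 TPM). Of 9 heparan sulfate proteoglycans, coreceptors for FGF, 8 reached 10 TPM, led by Sdc3 with 201 to 226 TPM.

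The cascade from receptor adaptors to ERK had 17 of 19 genes at 10 TPM or more, led by Map2k2 (84.5 to 102 TPM), an ERK-activating kinase. In Tut1 KO versus control 13 of these 17 were below 0, beside 60.7% of all genes, with a median of -0.13 beside -0.09 for all genes. After the correction for GC content and length the median of the 17 was -0.01. In double KO versus Trp53 KO the median was 0.08, and -0.02 after correction. Other inhibitors of receptors, Ras and ERK, led by Lrig1, were below 0 for 9 of 10 genes in Tut1 KO versus control (again beside 60.7% of all genes) with a median of -0.36, and -0.14 after correction. Spred1, a Ras inhibitor related to Sprouty, differed by -0.55 and Rasa1, a Ras GTPase-activating protein, by -0.68, and by -0.17 and -0.36 after correction. Both were named after their values were seen. In double KO versus Trp53 KO the other inhibitors were above 0 for 10 of 11 genes, beside 58.7% of all genes. Their median was 0.17, and 0.089 after correction, beside 0.05 and 0.02 for all genes. Of these 11 genes 9 were higher in both Y-expressing libraries, as were 28.5% of all genes, and the Y-expressing library is the second in Tut1 KO versus control and the first in double KO versus Trp53 KO.

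Other genes induced by ERK gave medians of -0.08 in Tut1 KO versus control and 0.02 in double KO versus Trp53 KO, which were -0.08 and 0.03 after correction. Ccnd1, cyclin D1, was the most abundant with 632 TPM in the control and 508 to 523 TPM in the other libraries. Among immediate early genes that reached 10 TPM, the highest level divided by the lowest was 1.09 for Egr1 (112 to 122 TPM) and Myc (64.4 to 70.0 TPM), 1.23 for Ier2 (36.1 to 44.5 TPM) and 1.32 for Fos (18.1 to 23.9 TPM). It was 1.69 for Ier3 (150.4 to 253.5 TPM). Receptors of other growth factors had medians of -0.28 and 0.05, which were -0.11 and -0.03 after correction, so that the second turned in sign. Ntrk2 led them with 71.9 to 80.2 TPM.

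**Figure D4:**
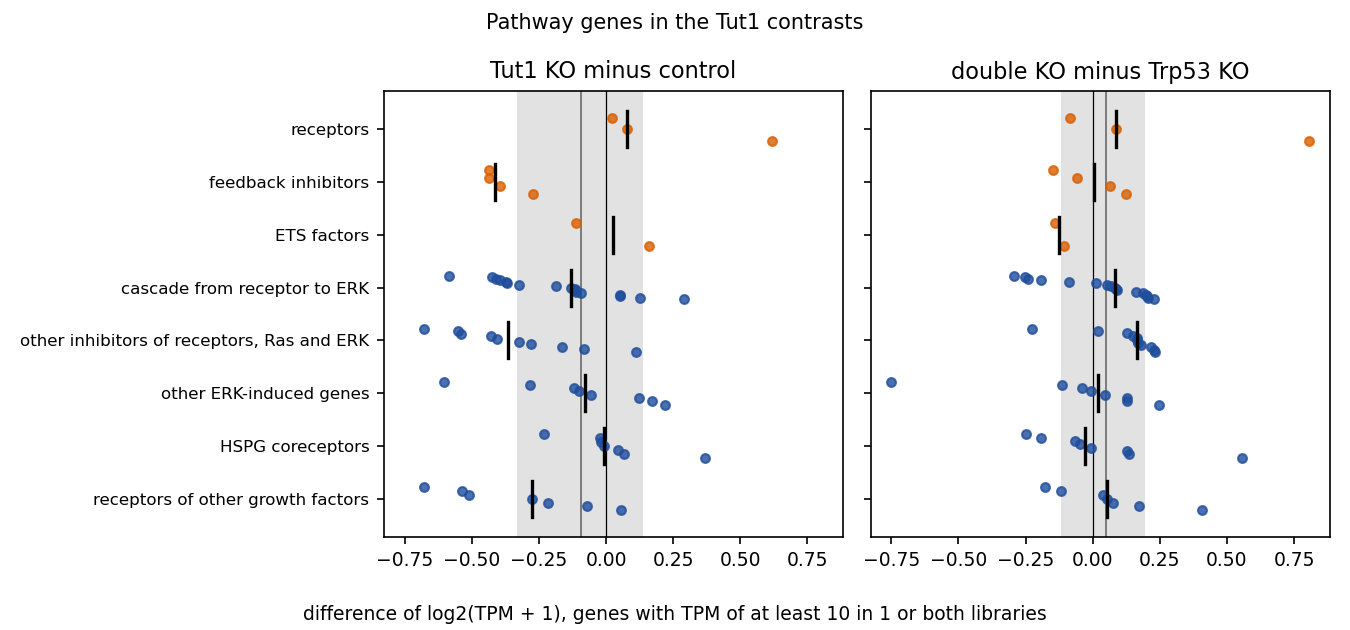
Difference of log2(TPM + 1) of pathway genes that reached 10 TPM, by list, in Tut1 KO versus control and double KO versus Trp53 KO. Points are genes (orange, the 10 genes described; blue, other lists), black ticks are list medians, and the band and grey line are the middle 50% and the median of all genes. The feedback inhibitors have a median of -0.41, left of the band, in the first comparison and of 0.0038, within the band, in the second.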

How the data were processed

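Transcripts were measured in 4 libraries of primary mouse neural stem cells, 1 per group as given by the labels. The deposited table held TPM computed by the authors for 55487 Ensembl gene IDs. Processing notes of the submitters name Trimmomatic, HISAT2, StringTie and mm10, without versions. A short-read stranded kit is named in the labels but long-read sequencing in the series text, and the platform is unclear. TPM keeps no depth, which is unknown, and no interval for counting error was computed.

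Differences were of log2(TPM + 1), a scale on which low genes change less than in TPM. Genes that reached 10 TPM in 1 or both libraries compared entered and were called at a difference of at least 1. Coordinates, GC content and length of the longest transcript came from GENCODE M21 (GRCm38), which held 55227 of the IDs. Promoters came from RefSeq.

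Members and lists were chosen with earlier results of these data known. Named genes were the 10 members, the label checks and listed genes of at least 10 TPM called in any pair of libraries. The most abundant gene of each list was also named. So were the 3 nearest, among the genes searched, to a member that spans at least 1 on the log2 scale. Spred1, Rasa1, the immediate early genes, Egf, single marker genes other than the most abundant, the genes of the closing observations, the orders by label and the motifs GGAA and GGGCGG were chosen after values were seen. The code was tested on simulated libraries. Tools were Python 3.11.15 with matplotlib 3.10.9, scipy 1.17.1, pandas 2.3.3 and numpy 2.4.6.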

Additional observations from a re-analysis of the deposited data

How the results depend on the processing

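Alternatives were a pseudocount of 0.1 or 5, other filters on low TPM, medians of all genes set to 0, rescaling without 129 ribosomal protein and mitochondrially encoded genes, quantile normalization, removal of the trend with GC content and length, and a 1.5-fold threshold. The number of members called was 1 in place of 0 at the 1.5-fold threshold in Tut1 KO versus control, double KO versus Trp53 KO and Trp53 KO versus control, each time Fgfr3. The number in Tut1 KO versus Trp53 KO was 0 in place of 1 with a pseudocount of 5, where Fgfr3 differed by 0.955, and 0 with TPM of at least 10 required in both libraries, where Fgfr3 did not enter. Of 60 differences of members, 2 changed sign under some alternative, the larger of them 0.087 in size. They were Egfr in double KO versus Trp53 KO (0.09 to -0.01) and Fgfr1 in double KO versus control (-0.03 to 0.03), both with the GC and length correction. Orders by label or by sex-linked transcripts were recomputed under 4 of these scalings, a step chosen after seeing the data, and held for the same genes. No paired analysis was possible because each group had 1 library and the labels give no replicate numbers. Leaving out a library was not possible for the same reason. Unknown depth limits every value, most of all those under 10 TPM.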

Other observations

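Erbb4, a neuregulin receptor of the EGF receptor family, had 3.82 TPM in the control, 0.0613 TPM in the library labelled Tut1 KO, 2.82 TPM with Trp53 KO and 3.69 TPM in the library labelled double KO. The library labelled Tut1 KO stood apart from the other 3, by -2.18 from the control on the log2(TPM + 1) scale and by -1.66 after the correction for GC content and length. That correction was fitted on genes that reached 10 TPM, so the corrected value is uncertain for a gene at this level. Erbb4 (chr1:68032186-69108059, minus strand) was under 10 TPM in every library and its exons overlapped those of no other annotated gene. Erbb2, a signalling partner of Erbb4, had 8.79, 7.81, 9.09 and 9.53 TPM in the same order of libraries.

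Ier3, an immediate early gene, had 164.5 TPM in the control, 153.5 TPM in the library labelled Tut1 KO, 253.5 TPM with Trp53 KO and 150.4 TPM in the library labelled double KO. Its difference was 0.62 in Trp53 KO versus control and -0.75 in double KO versus Trp53 KO, against -0.03 in double KO versus Tut1 KO. The Trp53 KO library was thus the high one.

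Fgf2, which encodes bFGF, had 1.497 TPM in the control, 1.18 TPM in the library labelled Tut1 KO, 1.43 TPM in that of the Trp53 KO and 0.141 TPM in the library labelled double KO. Its exons overlap those of Nudt6 on the opposite strand, at 2.87 to 4.72 TPM, and whether counting used strand was not stated. Etv1, the third PEA3 factor, had 37.0, 24.1, 33.1 and 39.5 TPM in the same order of libraries. The library labelled Tut1 KO was lowest by 0.60 from the control, and by 0.16 after the correction for GC content and length.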
